A study of Mus musculus with 2 samples.

Results

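The genes Alpl, Ank, Enpp1, Mgp and Spp1, which set the balance between mineral deposition and its inhibition were followed in spontaneously degenerative mouse cornea. Their spots were found by name on each array, as the current symbol or an older one (Akp2 for Alpl and Mglap for Mgp), which gave 6 spots among 35852 gene spots, and 5 genes among 14773 gene names. Alpl, Ank, Enpp1 and Spp1 had 1 spot each and Mgp had 2. Of the 5 genes, 4 were above background and Enpp1 was not.

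Tissue came from Balb/c mice affected in a single eye, and the degenerative cornea was set against the normal cornea of the same animals. No genetic change or treatment is named for either tissue, the sources used here give no age, and the labels speak of degeneration and do not mention calcium deposits. Both tissues were labelled with different dyes and hybridised together on 2 spotted arrays. The degenerative cornea carried Cy5 on array 1 and Cy3 on array 2. Being a dye swap of a single comparison, the arrays stood for 1 replicate. They allow no test across animals, and no p-value is given. Values with ± are the mean and SD of the 2 arrays (n = 2 arrays), which covers the spread of the measurement and not that between mice. The sources used here do not say whether RNA was pooled or how many mice gave it.

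As background, hydroxyapatite forms from calcium and phosphate, and inorganic pyrophosphate blocks crystal growth. Enpp1 makes pyrophosphate outside the cell from nucleotides, Ank brings it or its nucleotide source out of the cell, and Alpl, tissue-nonspecific alkaline phosphatase, cleaves it to phosphate. Mgp, matrix Gla protein, and Spp1, osteopontin, are secreted proteins that bind mineral and restrain calcification of soft tissue. Mice that lack Mgp calcify their arteries and cartilage, and loss of Enpp1 or Ank leads to ectopic mineral in joints. Osteopontin is also a cytokine of macrophages and a ligand of integrins and CD44.

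None of the 4 measured genes differed 2-fold between the tissues. Spp1 was lower in the degenerative cornea, 1.38-fold by the mean of the arrays, Alpl was 1.17-fold higher, and Mgp and Ank lay close to 0 on the log2 scale. A gene was called higher only where its log2 ratio of degenerative over normal cornea was 1 or more on both arrays, and lower only where it was -1 or less on both. By that rule 0 of the 4 members were called, against 0.317% of 7896 measured genes called higher and 0.709% called lower. A smaller size of 0.3 on each array was reached by 4.51% of all measured genes in the higher direction and by 4.83% in the lower direction, and by 1 of the 4 members, Spp1, in the lower direction. The median log2 ratio of all measured genes was 0.0081.

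**Figure D1:**
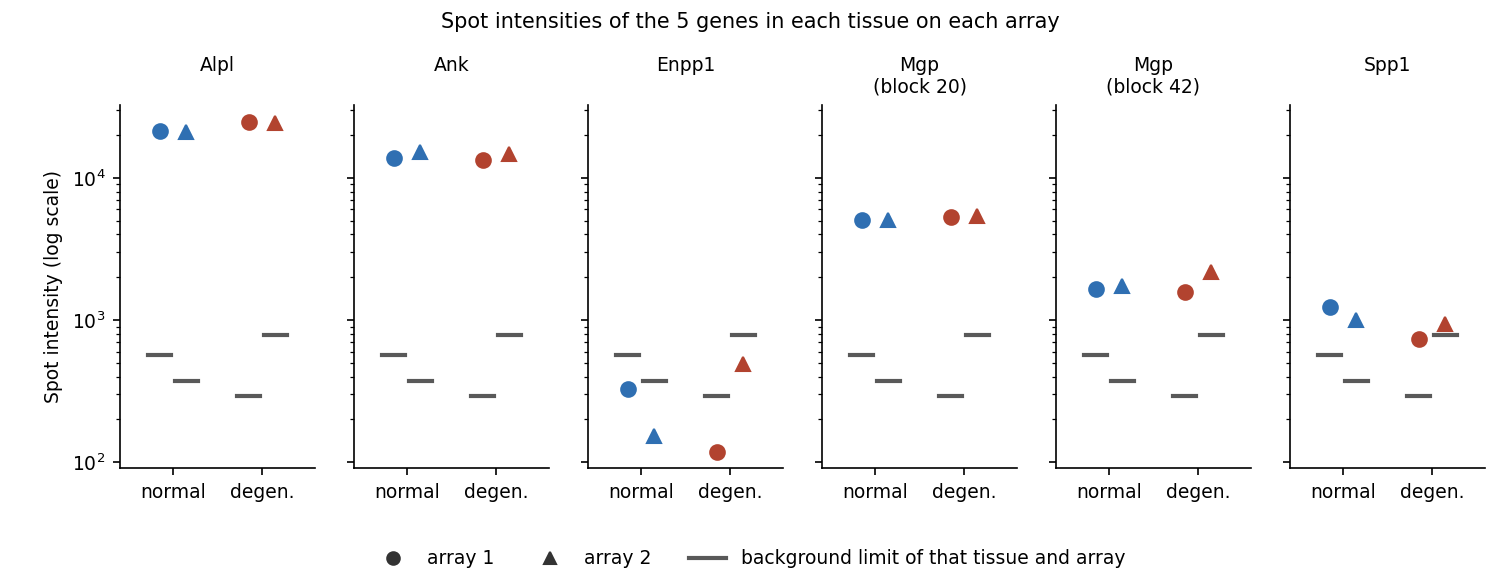
Spot intensity (log axis) of the 5 genes in normal (blue) and degenerative (red) cornea, with circles for array 1, triangles for array 2 and grey bars at the background limit of each tissue and array. The 4 Enpp1 values lie under their limits, Spp1 lies closest above them, and intensities of different spots cannot be compared as expression levels.

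Of the enzymes and exporters of pyrophosphate, Alpl was bright in both tissues. Its spot had an intensity of 24746 in the degenerative and 21469 in the normal cornea on array 1, and of 24311 and 21133 on array 2. The degenerative cornea was the brighter tissue under either dye, and the intensities of the tissues did not overlap. The normalized log2 ratio was 0.20 on array 1 and 0.26 on array 2 (0.23 ± 0.05). Raw ratios centred on the median of all gene spots of each array, which are not corrected by brightness, gave opposite signs, 0.82 and -0.34. The median of all measured genes was then 0.46 on array 1 and -0.35 on array 2. Alpl lay above that median on array 1 and close to it on array 2. A ratio at least this far above 0 on each array was common: 740 of 7895 other genes had one (9.37%), and so did 37 of 336 genes of like brightness (11.0%). Brightness was taken as like where the mean log2 intensity of both tissues and arrays lay within 0.5. The SD of Alpl, 0.05, was below the median SD of those 336 genes, 0.074.

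Ank, the pyrophosphate exporter, had nearly equal intensities in the tissues. On array 1 it was 13381 in the degenerative and 13770 in the normal cornea, and on array 2 it was 14790 and 15258. The tissues overlapped across arrays, since the degenerative cornea on array 2 was brighter than the normal cornea on array 1. The log2 ratio was 0.0072 on array 1 and 0.038 on array 2 (0.023 ± 0.022), within the middle of the 543 genes of like brightness, whose quartiles were -0.16 and 0.11.

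Enpp1, the pyrophosphate-producing ectoenzyme, was not above background in either tissue. Its intensity was 119 in the degenerative and 330 in the normal cornea on array 1, where the limits were 290 and 570. On array 2 it was 492 and 153, under limits of 789 and 373. The spot was brighter in Cy3 on both arrays, so that the raw ratio of degenerative over normal cornea was 0.361 on array 1 and 3.22 on array 2. A level under the limit leaves the relation between the tissues unmeasured.

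Mgp, the Gla protein that inhibits calcification, was represented by 2 spots, both with ratios close to 0. The spot in print block 20 had intensities of 5286 in the degenerative and 5026 in the normal cornea on array 1, and of 5423 and 5029 on array 2. The degenerative values lay above the normal values, but the normalized log2 ratios were 0.088 and -0.014. The spot in print block 42 had intensities of 1578 and 1652 on array 1 and of 2161 and 1744 on array 2, with log2 ratios of 0.18 and 0.012, and here the tissues overlapped. Both spots were above the limits in all channels. Their ratios differed by less than the SD of either spot over the arrays (0.037 ± 0.072 and 0.095 ± 0.12). The mean of both spots was 0.13 on array 1 and -0.0007 on array 2 (0.066 ± 0.094), which lay within the quartiles of 1591 genes of like brightness, -0.12 and 0.13. Block 42 is 1 of 4 print blocks in which many spots without a gene gave signal, and the spot in block 20 lies outside them.

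Spp1, the acidic matrix protein osteopontin, had the ratio farthest from 0 among the members. Its intensity was 734 in the degenerative and 1237 in the normal cornea on array 1, and 937 and 997 on array 2. Both normal values lay above both degenerative values, although on array 2 by little, and the raw ratio was 0.593 on array 1 and 0.940 on array 2. After the deposited normalization, whose method is not named, the log2 ratio was -0.45 on array 1 and -0.47 on array 2 (-0.46 ± 0.01). In this mixed tissue, fewer cells that express the gene and less RNA per cell cannot be told apart.

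A ratio of -0.45 or lower on each array was found for 181 of 7895 other genes (2.29%), and for 56 of 1849 genes of like brightness (3.03%). The Spp1 spot lay near background, at 1.19 to 2.67 times the limit of each channel, with the lowest value in the degenerative cornea on array 2. The SD of 0.01 was small beside the median SD of genes of like brightness, 0.14, and it depended on the normalization. With a print-tip loess the log2 ratios of Spp1 were -0.49 and -0.38. Raw centred ratios gave -0.14 and -0.63, so that Spp1 no longer reached 0.3 on both. The medians of all measured genes were then 0.46 and -0.35, and Spp1 lay below them on both arrays. With a stricter background limit, the 95th percentile of Empty spots, Spp1 no longer counted as measured.

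**Figure D2:**
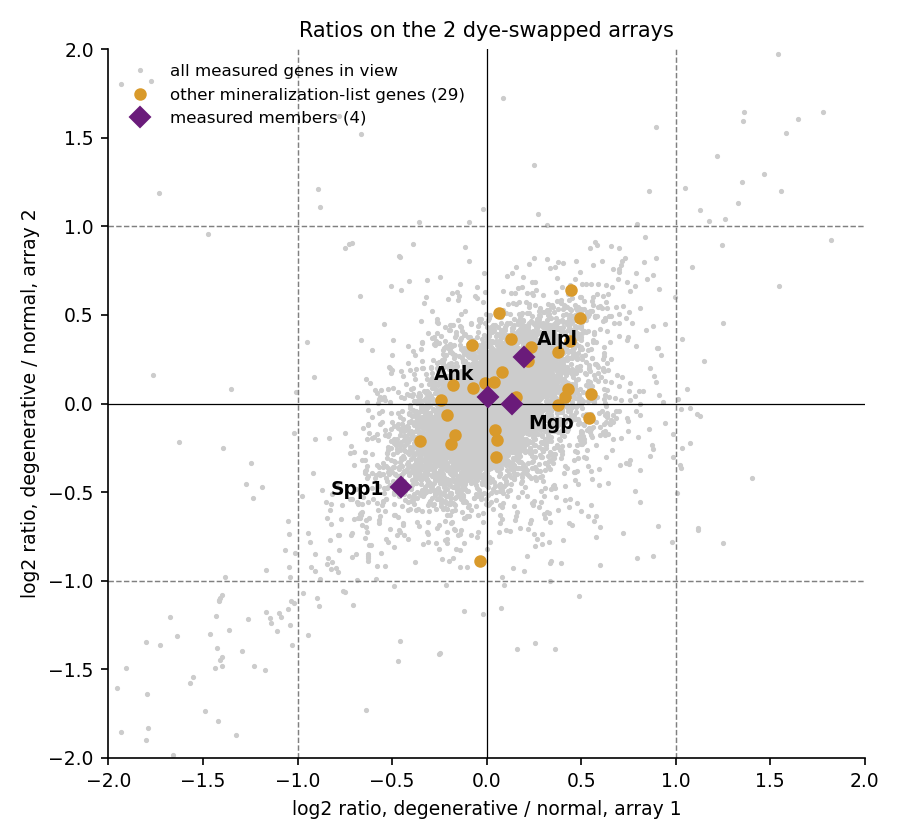
Log2 ratio of degenerative over normal cornea on array 1 (x) and array 2 (y), with all measured genes within 2 units of 0 in grey, 29 other genes of the mineralization lists in orange and the 4 measured members as purple diamonds. Dashed lines mark a ratio of 1 in size; the members lie inside them, with Spp1 at -0.45 and -0.47.

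The genes that act with these members were described from lists by role, chosen with earlier results of these arrays known. Besides the members the mineralization lists held 58 genes, of which 29 were measured, 19 were not above background and 10 had no probe under their name. None of the 29 was called. Of these genes 14 were above 0 and 5 below 0 on both arrays, and 10 had opposite signs. Among all 7896 measured genes 2567 had opposite signs (32.5%). The shares of all genes above or below 0 on both arrays were not counted. Counts of signs, here and for the lists below, therefore describe the listed genes alone. The median of the 29 was 0.12, against 0.0081 for all measured genes, and on the single arrays it was 0.067 and 0.080. At 0.3 or more on each array, 3 of the 29 were higher (10.3%, against 4.51% of all measured genes) and 0 were lower (against 4.83%). The 3 were Enpp3, Bmpr1a and Bgn.

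Among genes of phosphate and pyrophosphate handling, 7 of 14 were measured, Alpl and Ank included. Enpp3, an ectonucleotide pyrophosphatase of the same family as Enpp1, had the highest ratio of the mineralization lists. Its intensity was 13877 in the degenerative and 10399 in the normal cornea on array 1, and 14962 and 9716 on array 2, so that the tissues did not overlap. The log2 ratios were 0.45 and 0.64 (0.54 ± 0.14, 1.46-fold). The phosphate transporter Slc34a2 had a ratio of 0.25 ± 0.16 and the phosphate exporter Xpr1 0.13 ± 0.07. Slc20a1, a sodium-dependent phosphate transporter, had opposite signs on the arrays (0.054 and -0.20), as had the cytosolic pyrophosphatase Ppa1 (-0.24 and 0.020). Abcc6, which drives the release of the nucleotide source of pyrophosphate, Nt5e, which makes adenosine from AMP, Slc20a2 and Phex were not above background.

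In the list of acidic matrix proteins the relatives of osteopontin were dim. Ibsp, Dmp1, Mepe and Dspp, which are best known from bone and teeth, were not above background. Sparc, osteonectin, a collagen- and calcium-binding matrix protein, was measured and went the other way from Spp1, with 22334 in the degenerative and 18577 in the normal cornea on array 1 and 21966 and 17233 on array 2. Its log2 ratio was 0.28 ± 0.06.

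Genes that act on Gla proteins like Mgp, and other inhibitors, went both ways. Ggcx, the carboxylase that gives Gla proteins their calcium-binding residues, had log2 ratios of 0.43 and 0.080, and Vkorc1, which recycles the vitamin K it needs, -0.35 and -0.21 (-0.28 ± 0.10). Gas6, a Gla-containing ligand of the TAM receptors, had 0.096 ± 0.085. The fetuin Fetub had 0.054 ± 0.088, and Ahsg, the fetuin that binds mineral in blood, was not above background. Tnfrsf11b, the decoy receptor osteoprotegerin, had opposite signs (-0.080 and 0.33). Of 6 measured genes in this list, 2 were above 0 and 1 below 0 on both arrays.

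Osteogenic regulators were in part below detection. Of 23 genes 13 were measured, and 8 were not above background, among them Runx2 and Sp7, the transcription factors that direct osteoblast formation, Bmp2 and Vdr, the vitamin D receptor. Bmpr1a, a type I receptor of bone morphogenetic proteins, had log2 ratios of 0.49 and 0.48 (0.49 ± 0.01). Its spot was near background, with 554 in the degenerative and 587 in the normal cornea on array 1, where the raw order was the other way, and 1030 and 499 on array 2. Smad1, which carries the signal of such receptors, had 0.22 and 0.24. The ligands Bmp4 (-0.14 ± 0.10), Bmp6 (-0.05 ± 0.13) and Bmp7 (0.08 ± 0.06) had smaller ratios. Twist1, a mesenchymal transcription factor, had 0.33 ± 0.06 and the stress-response factor Atf4 -0.21 ± 0.03. Dlx5, a homeobox factor of bone, had the lowest mean of these lists, but its ratios were -0.033 and -0.89 and its degenerative value was above background on 1 of 2 arrays.

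In the bone matrix list 5 of 10 genes were measured. Bgn, biglycan, a proteoglycan of bone and of other connective tissue, had an intensity of 7818 in the degenerative and 6113 in the normal cornea on array 1 and of 7047 and 5086 on array 2. Its log2 ratio was 0.40 ± 0.06. Dcn, decorin, a related proteoglycan abundant in corneal stroma, had -0.17 ± 0.01. Tnc, Comp and Postn had opposite signs on the arrays. Col10a1 and Col2a1, collagens of cartilage, were not above background.

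Receptors of osteopontin were measured in 3 of 10 cases, and all 3 were above 0 on both arrays while Spp1 was below 0. Cd44, the hyaluronan receptor that also binds osteopontin, had intensities of 6755 in the degenerative and 5110 in the normal cornea on array 1 and of 6250 and 4362 on array 2, with a log2 ratio of 0.39 ± 0.005. The integrin chain Itgb1 had 0.40 ± 0.04 and Itgb5 0.12 ± 0.05. Cd44 and Itgb1 reached 0.3 on each array, as 4.51% of all measured genes did. The alpha chains Itgav, Itga4, Itga5 and Itga8 and the beta chain Itgb6 were not above background. Of osteoclast genes 5 of 9 were measured, and 3 had opposite signs, with Acp5, tartrate-resistant acid phosphatase, at 0.13 ± 0.13 and the collagen-cleaving protease Ctsk at -0.28 ± 0.23.

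**Figure D3:**
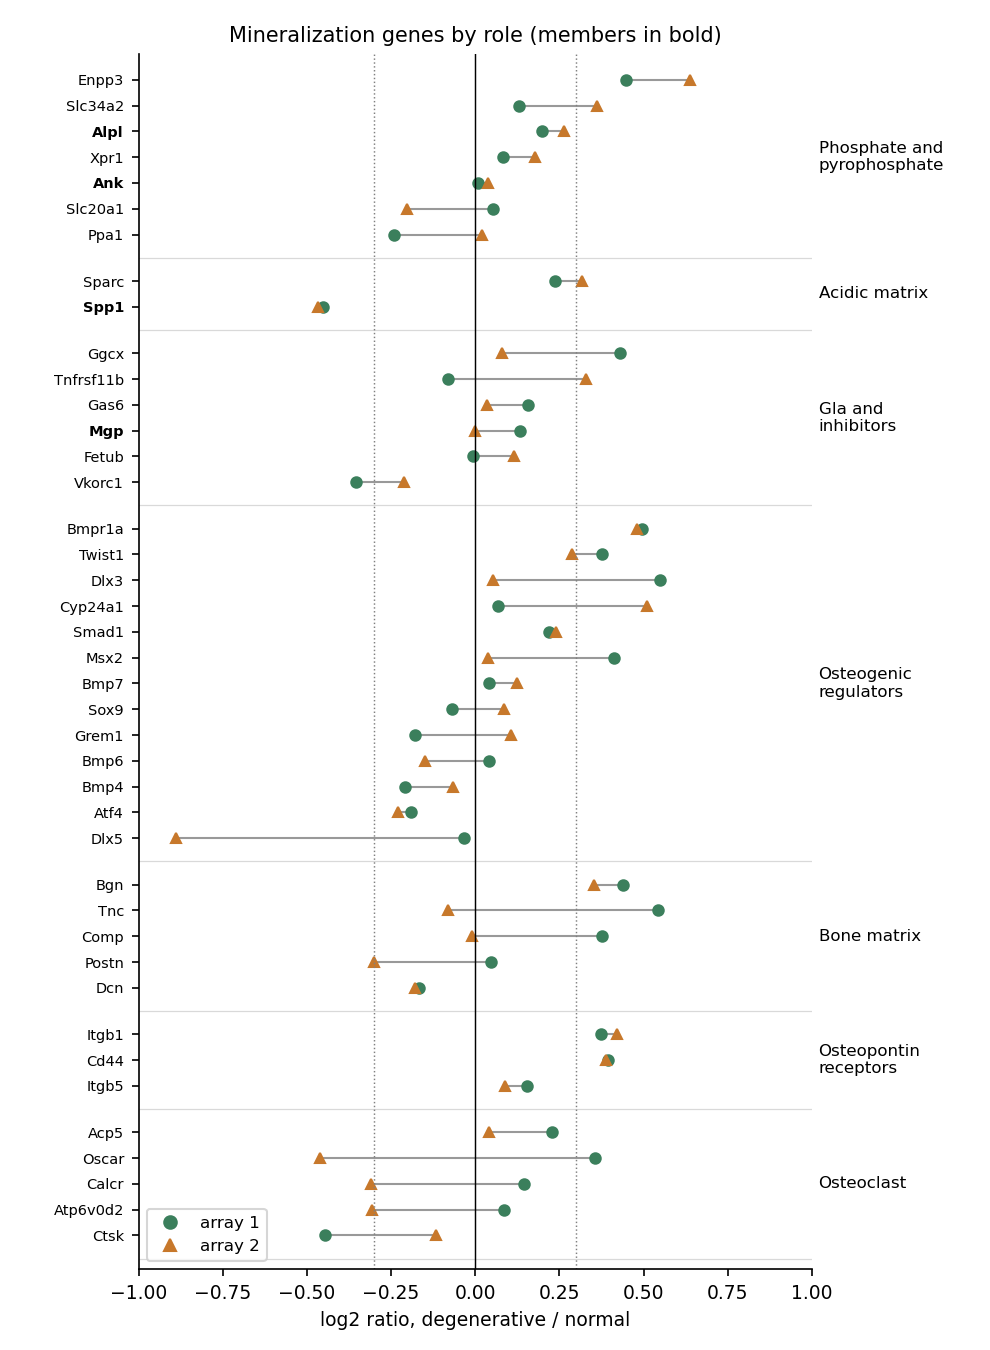
Log2 ratio of degenerative over normal cornea for each measured gene of the mineralization, osteopontin receptor and osteoclast lists, with circles for array 1 and triangles for array 2 joined by a line. Dotted lines mark 0.3 in size; Enpp3, Bmpr1a, Bgn, Itgb1 and Cd44 lie above it on both arrays and Spp1 below it.

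Markers of other eye tissues differed between the samples beside these ratios. Corneal epithelial markers were bright in both tissues. Krt12, the corneal keratin, Krt5, Aldh3a1 and Tkt were saturated in all 4 channels. Of the 9 epithelial markers, all measured, 7 were above 0 and 0 below 0 on both arrays, and 2 had opposite signs. Their median log2 ratio was 0.12. Retinal transcripts were plentiful in the normal cornea: the summed intensity of 12 measured retina markers of 15 was 161012 in normal and 46154 in degenerative cornea on array 1, and 138767 and 47050 on array 2. Of these 12 genes 10 were called lower, and their median log2 ratio was -1.56. Of 12 measured lens markers, 8 were called higher, with a median of 1.67, and their summed intensity was 138143 in degenerative and 52008 in normal cornea on array 1 and 143773 and 51258 on array 2. Beside the matrix genes Bgn, Sparc and Dcn, 5 of 7 measured keratocyte markers, Dcn itself among them, had ratios below 0 on both arrays. The median of the 7 was -0.19. Their ratios ran from -0.93 ± 0.004 for Ptgds, prostaglandin D synthase, to 0.25 ± 0.36 for Cd34. Of 5 measured markers of trabecular meshwork and sclera, 3 were at least 0.3 higher on both arrays, the median of the 5 was 0.36, and 1, Chil1, was called higher (1.29 and 2.82), although its normal value passed the limit on array 1 alone. The part of these cells in the ratios of matrix genes was not tested.

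Spp1 is known from retinal ganglion cells and from macrophages. Of 9 ganglion cell markers 6 were measured and 3, Pou4f2, Sncg and Isl1, were not above background. The median of the 6 was -0.26, with 4 below 0 on both arrays, and Thy1, also found on other cells, was called lower (-1.70 ± 0.29). The summed intensity of the 6 was 12075 in normal and 8122 in degenerative cornea on array 1, and 10428 and 10262 on array 2. Of 14 macrophage marker names, with Adgre1 listed also by its older symbol Emr1, 5 were measured, with a median of -0.022. Their summed intensity was 27893 in normal and 22440 in degenerative cornea on array 1 and 29074 and 24730 on array 2. Without Gpnmb the other 4 summed to 10269 in normal and 10424 in degenerative cornea on array 1. On array 2 their sums were 10114 and 11190. The direction of these raw sums thus turned, on array 1 by little, and the ratios of the 4 genes went both ways. Gpnmb, which pigment cells also express, had -0.41 ± 0.13 and Cd68 0.25 ± 0.09. On arrays 1 and 2 the log2 ratios were -0.0033 and -0.46 for Csf1r, 0.45 and 0.20 for Lyz1, and 0.20 and -0.24 for Msr1. The macrophage markers Adgre1, Itgam and Mrc1 were among those not above background. The 5 measured markers of melanocytes, iris and ciliary body had a median of -0.71, with 4 below 0 and 1, Mitf, above 0 on both arrays. The part of these tissues in the Spp1 ratio was not tested.

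**Figure D4:**
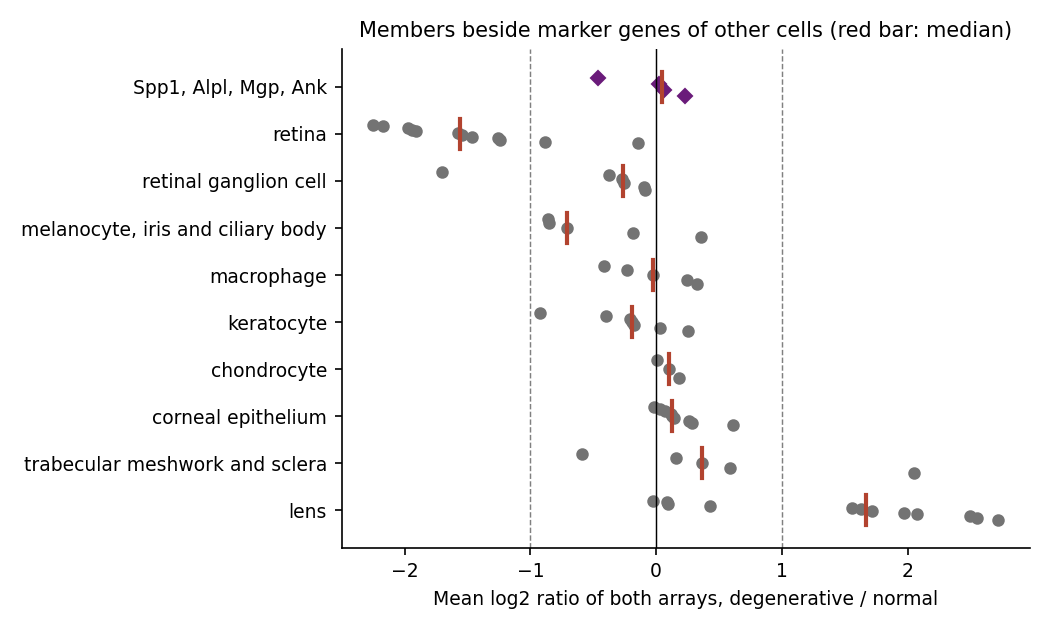
Mean log2 ratio of both arrays for the 4 measured members (diamonds) and for the measured genes of each marker list (circles), with the median of each row as a red bar and dashed lines at 1 in size. Retina markers lie to the left with a median of -1.56 and lens markers to the right with a median of 1.67, while the members lie between -0.46 and 0.23.

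The genes whose 4 channel values, 2 tissues on 2 arrays, lay nearest to those of each member were sought among 6557 named genes. Nearness was the Euclidean distance of log2 intensities after the deposited normalization. For Spp1 they were Pitpnm1 (distance 0.095, log2 ratio -0.51 ± 0.05), Ppp3cc (0.11, -0.37 ± 0.08) and Zfp606 (0.11, -0.40 ± 0.13). For Alpl they were Tax1bp1, Rhoa and H2-Q7, at distances of 0.10 to 0.13 and with log2 ratios of 0.19 to 0.21. For Mgp they were Rabl2, Panx1 and Atg7, and for Ank they included Erh and Gars. With only 4 values from 1 dye swap, such nearness describes brightness and ratio alone.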

How the data were processed

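Total RNA of degenerative and normal cornea was amplified, labelled and hybridised to 2 two-colour arrays, per the labels' protocols. The deposited tables give the intensity of each spot in both dyes, and values below 0 show that a background had been subtracted. They also hold normalized ratios of degenerative over normal cornea, as log2 and as linear ratio, per the file headers. No scanner and no normalization method are named in the sources used here. The log2 ratios were used as deposited.

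The members, lists and limits were chosen with earlier results of these data known. Control spots (1780 of 37632) were left out. Names were matched to symbols or to synonyms of 1 symbol in a RefSeq table of GRCm38.p6, which was used for names only. A probe counted as measured where at least 1 channel on each array was above the median of 632 Empty spots plus 3 scaled median absolute deviations, which kept 14894 probes. A gene's value is the mean over its measured probes. Markers were called saturated at 98% of the highest intensity of a channel. Gene probes above the limit made up 34.9% to 47.2% of each channel. The number of arrays limits the precision.

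The genes named are the 5 members, measured genes of the fixed lists, first those past 0.3 on both arrays, and the 3 nearest genes of each member, of which 1 is not reported here. Calls were tested on simulated data. Alternatives changed the normalization (limma 3.58.1 in R 4.3.3), the filter, the probe rule, the size rule, the print blocks and the array. Tables were made with Python 3.11.15, numpy 2.4.6 and pandas 2.3.3.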

Additional observations from a re-analysis of the deposited data

Results flagged for a closer look

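Signal appeared in spots named Empty, which are printed without a gene. They are not compared between the tissues, but the background limits are set from them. On both arrays, 65 of 632 exceeded the limit in at least 1 channel. Of the 632, 402 lie in print blocks 41, 42, 45 and 46, so that the limits rest largely on those blocks. In print block 42, which holds the dimmer Mgp spot, 61 of 103 Empty spots were above it on either array. The Mgp spot in block 20 had log2 ratios of 0.088 and -0.014 and lies outside the 4 blocks with most of this signal. No other member lies in those blocks, but the limits apply to all members, including Enpp1 under them and Spp1 near them.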

How the results depend on the processing

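None of the 4 measured members reached a log2 ratio of 1 in size under any alternative run. Spp1 was below 0 in 9 of 9 alternatives that measured it (-0.47 to -0.39) and the mean of Alpl above 0 in 10 of 10 (0.20 to 0.27), although its raw centred ratios were 0.82 on array 1 and -0.34 on array 2. Mgp was above 0 in 9 of 10 (-0.0007 to 0.14), as was Ank (-0.0079 to 0.063). Many of these alternatives could not change a ratio. Spp1, Alpl and Ank have 1 spot each, so the filter, probe and print block settings returned their main values wherever they were measured. The single-array settings repeat the ratios of each array. Only the other normalizations recalculated the ratios of these genes. Print-tip loess gave -0.43 for Spp1 and 0.063 for Ank. Raw ratios centred on the median gave -0.39 for Spp1 and -0.0079 for Ank, and the median of all measured genes was then 0.46 on array 1 and -0.35 on array 2. Enpp1 had a value only without the background filter (0.018 and 0.54), where it enters the list values, and with the 95th percentile of Empty spots as the limit Spp1 had none.

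The median of the mineralization lists, 0.096, was 0.17 with raw centred ratios, 0.066 without the filter, 0.082 with both channels above the limit, 0.12 without print blocks 41, 42, 45 and 46, and 0.052 to 0.067 on single arrays. The 3 genes at least 0.3 higher became 5 with a whole-array loess and 7 to 9 on single arrays. The 1 gene at least 0.3 lower became 0 with raw centred ratios and with the 95th percentile limit, 2 without the filter and 2 to 3 on single arrays. These 2 counts were added to the alternatives after the data were seen. A cut on 1 array alone is looser than the same cut on both, so no single-array count can be smaller. The share of all measured genes past 0.3 under each alternative was not counted. Of all genes, 25 were called higher and 56 lower. Without the filter these were 179 and 130, with the 95th percentile limit 16 and 34, with the 1.5-fold size rule 60 and 119, and on single arrays 49 to 55 and 85 to 91. The lower genes were 37 with raw centred ratios and 30 with both channels above the limit. Except where the alternative changes the genes or arrays used, the cause was not tested.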
